A study of Mus musculus with 14 samples.

Results

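CRTAM, CD226, TIGIT and CD96 are immunoglobulin-family receptors on T cells and NK cells that bind nectins and nectin-like molecules, and CADM1 and PVR are the nectin-like ligands of this group. The 6 genes were chosen by name. A gene without a named row in a library was taken from an assembled locus without a name that shared at least 0.8 of the joint span with the gene's locus or an annotated transcript of it. All 6 genes had a value in every one of 14 libraries, among 31092 genes with a value in each library.

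The libraries came from CD4+ T cells of C57BL/6 mice of both sexes aged 6 to 12 weeks and fell into 2 experiments. In the first, naive cells (CD25- CD44lo CD62L+) from 4 wild-type (WT) and 4 HDAC1f/f HDAC2f/+ x CD4cre (HDAC1cKO-HDAC2HET) samples were stimulated for 3 days through CD3 and CD28 with IL-2 added, and live cells were sorted. In the second, cells from 3 WT and 3 HDAC1f/f x CD4cre (HDAC1cKO) samples had 3 days of activation followed by 12 hours of restimulation through CD3. The Cre transgene is driven by Cd4, so that the floxed alleles are deleted from the double-positive thymocyte stage onward in CD4 and CD8 lineage T cells alike, and the controls were labelled wild type. The preparations of the first experiment were independent and made on the same day. Whether each library of the second stood for a separate mouse was not given in the sources used here, so p-values measure the spread between these libraries. Named rows per library numbered 36704 to 38572 in the first experiment and 24363 to 25130 in the second, so the listing of genes differed too. The experiments differed in genotype, restimulation, time of preparation and this listing at once, which cannot be told apart.

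Values were FPKM (fragments per kilobase and 1000000 mapped fragments), which are scaled to library size and transcript length. Fragment numbers estimated from the confidence bounds of low genes, with an assumed mean fragment length of 200 bases, ranged from 24400000 to 57700000 per library. The targeted gene Hdac1 was at 76.3 to 79.6 FPKM in the 4 WT samples against 6.65 to 10.7 in HDAC1cKO-HDAC2HET samples, and at 72.3 to 81.1 FPKM in the 3 WT samples against 8.52 to 12.1 in HDAC1cKO samples. Hdac2 was at 58.2 to 60.3 FPKM in WT against 34.0 to 37.0 in HDAC1cKO-HDAC2HET samples, and at 62.4 to 78.2 FPKM in WT against 74.8 to 88.1 in HDAC1cKO samples. Fewer cells of a type and less RNA per cell cannot be told apart in these bulk samples.

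CRTAM is induced on activated CD8 and a fraction of activated CD4 T cells, where it binds CADM1, recruits the polarity protein Scribble and is known to mark CD4 cells that acquire cytotoxic features. CD226 (DNAM-1) is a costimulatory receptor that signals with the integrin LFA-1 and the kinase Fyn. TIGIT and CD96 compete with CD226 for the ligand PVR (CD155), and TIGIT inhibits through phosphatases recruited to its cytoplasmic tail.

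In HDAC1cKO-HDAC2HET cells Crtam and Tigit rose more than 4-fold while Cd226 fell about 2-fold and Cd96 by less. In HDAC1cKO cells the mean FPKM of these 4 receptors lay on the same sides of the WT mean with smaller fold changes, and none passed the adjusted threshold. There the samples of the 2 groups overlapped for Tigit and Cd96. The ligand genes Cadm1 and Pvr did not pass in either experiment. In the HDAC1cKO-HDAC2HET experiment 2 of 6 genes rose and 2 fell at an adjusted p of at most 0.05 (limma with Benjamini-Hochberg adjustment over all genes tested), where 24.2% of 15105 genes rose and 27.6% fell. With a change of at least 2-fold as well, 3 of 6 genes were called, namely Crtam, Tigit and Cd226, against 5.6% of all genes called higher and 5.58% called lower. The samples of the 2 genotypes did not overlap for 4 of 6 genes, Crtam, Tigit, Cd226 and Cd96, against 50.3% of all genes. In the HDAC1cKO experiment 0 of 6 passed by limma, where 0.0929% of 14001 genes passed in either direction. At an unadjusted p under 0.05 there were 4 of 6, Crtam, Cd226, Tigit and Pvr, against 14.2% of all genes. In a limma fit over all 14 samples, chosen after the data had been seen, Crtam, Cd226 and Pvr passed in HDAC1cKO cells with adjusted p of 0.00242, 0.0334 and 0.0261.

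**Figure D1:**
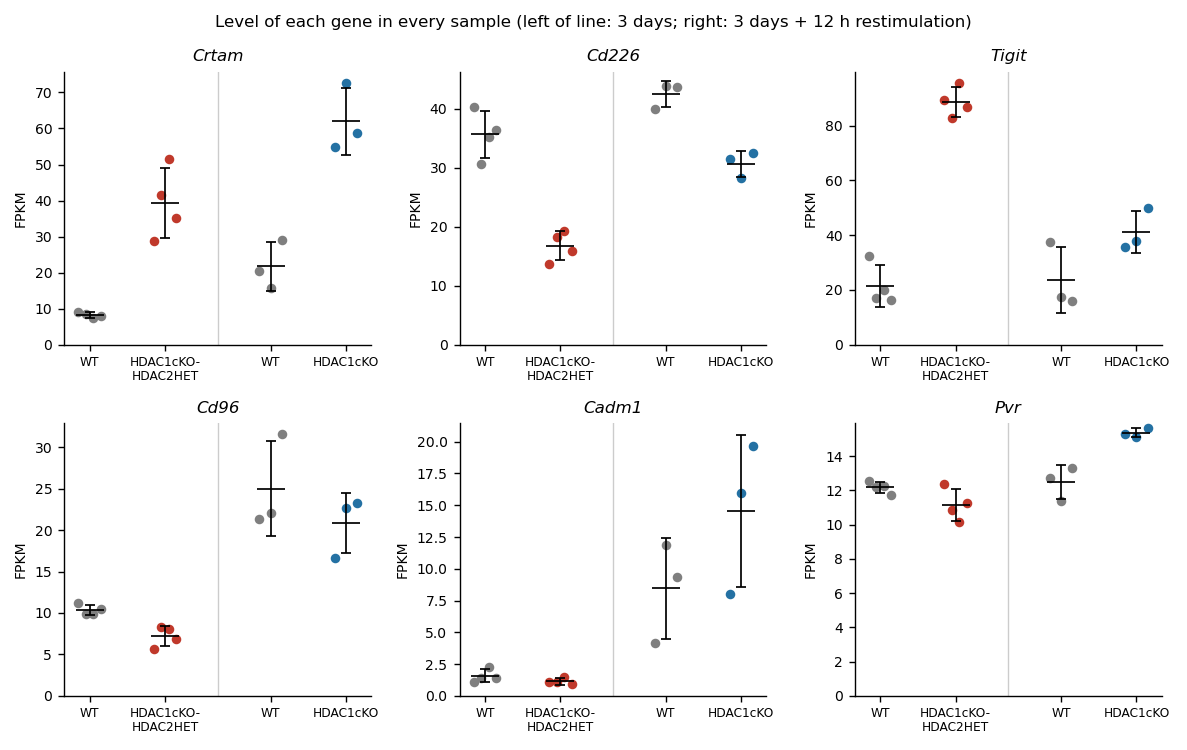
FPKM of each gene in every sample (y axis, linear from 0), grouped by genotype (x axis), with the mean and SD in black. Crtam and Tigit of all 4 HDAC1cKO-HDAC2HET samples lie above every WT sample of their experiment and Cd226 and Cd96 of all 4 lie below, while Cadm1 and Pvr overlap with WT there.

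Crtam lies on chromosome 9 (mm10, chr9:40969691-41004628, minus strand). Its FPKM was 9.16, 8.36, 7.48 and 7.88 in WT replicates 1 to 4 and 28.7, 41.5, 51.6 and 35.2 in HDAC1cKO-HDAC2HET replicates 1 to 4. The lowest mutant sample stood at more than 3 times the highest WT sample, and the mutant samples varied more (coefficient of variation 24.9%) than the WT samples (8.79%). The means were 8.22 ± 0.723 FPKM (SD, n = 4) and 39.2 ± 9.75 FPKM (SD, n = 4). On the log2(FPKM + 0.1) scale the difference was 2.21 ± 0.17 (SE), a 4.63-fold rise with an adjusted p of 2.77e-05 and a 95% interval from 1.82 to 2.61. The 2-sided exact permutation test gave p = 0.0286, the smallest that 70 arrangements of 4 against 4 samples allow.

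In HDAC1cKO libraries and their controls Crtam was at 20.4, 15.7 and 29.0 FPKM in WT replicates 1 to 3 and at 54.8, 72.5 and 58.8 FPKM in HDAC1cKO replicates 1 to 3. The groups did not overlap, which held for 22.3% of all genes tested there. The means were 21.7 ± 6.74 and 62.0 ± 9.31 FPKM (SD, n = 3 each), and the log2 difference was 1.55 ± 0.24 (SE), a 2.92-fold higher value with a 95% interval from 0.97 to 2.12. The limma p was 6.07e-04 before and 0.131 after adjustment, and the exact permutation p of 0.1 is the smallest that 20 arrangements of 3 against 3 samples allow. Without WT replicate 3, the highest of the WT samples, the log2 difference was 1.78 and the adjusted p 0.0418. The log2 fold change was higher by 0.67 ± 0.30 (SE) in the HDAC1cKO-HDAC2HET experiment, a difference that did not pass (adjusted p = 0.172).

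Crtam had no named row in any library. Its locus covered the whole gene in the 8 libraries of the first experiment but began at position 40972753 in the 6 libraries of the second, where it shared 0.912 of the span. Separate unnamed loci over the missing 3′ stretch, at 0.927 to 2.32 FPKM, were listed in 5 of those 6 libraries and were not added. Levels and fold changes of Crtam therefore rest on unlike loci in the 2 experiments, but on the same locus in WT and mutant within each.

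Tigit lies on chromosome 16 (chr16:43648867-43664146, minus strand). Its FPKM was 32.4, 17.1, 19.8 and 16.3 in WT replicates 1 to 4 and 89.4, 82.9, 95.5 and 86.7 in HDAC1cKO-HDAC2HET replicates 1 to 4. All mutant samples were above all WT samples, and here the WT samples were the more variable (coefficient of variation 35.1% against 6.00%), with replicate 1 above the other WT samples. The means were 21.4 ± 7.51 and 88.6 ± 5.32 FPKM (SD, n = 4 each). The log2 difference was 2.10 ± 0.21 (SE), a 4.29-fold rise with an adjusted p of 9.20e-05 and an exact permutation p of 0.0286. Tigit had no named row in any library, and its assembled loci shared 0.897 to 0.952 of the joint span with the gene. The locus ended at position 43665136 in WT replicate 1 and at 43664184 to 43664333 in the other WT samples of this experiment, so WT replicate 1 was measured over a longer stretch.

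After restimulation Tigit was at 37.3, 17.3 and 16.1 FPKM in WT replicates 1 to 3 and at 35.8, 37.9 and 50.03 FPKM in HDAC1cKO replicates 1 to 3. WT replicate 1 lay within the range of the mutant samples, so that the groups overlapped. The means were 23.5 ± 11.96 and 41.2 ± 7.69 FPKM (SD, n = 3 each), and the log2 difference of 0.90 ± 0.34 (SE) did not pass (adjusted p = 0.329, exact permutation p = 0.2). The log2 fold change exceeded that of HDAC1cKO cells by 1.20 ± 0.41 (SE) in HDAC1cKO-HDAC2HET cells with an adjusted p of 0.0703, which did not pass. Without WT replicate 1 of the HDAC1cKO-HDAC2HET experiment it was 1.42 with an adjusted p of 0.0273, and without WT replicate 3 of the HDAC1cKO experiment 1.42 with an adjusted p of 0.0432.

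Cd226 lies on chromosome 18 (chr18:89176967-89272229, plus strand). Its FPKM was 40.3, 30.7, 35.2 and 36.3 in WT replicates 1 to 4 and 13.7, 18.2, 19.2 and 15.9 in HDAC1cKO-HDAC2HET replicates 1 to 4. Every mutant sample lay below every WT sample. The means were 35.6 ± 3.94 and 16.8 ± 2.43 FPKM (SD, n = 4 each), the log2 difference was -1.09 ± 0.12 (SE), and the 2.13-fold fall had an adjusted p of 1.71e-04 and an exact permutation p of 0.0286.

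In the HDAC1cKO experiment Cd226 was at 39.9, 43.9 and 43.7 FPKM in WT replicates 1 to 3 and at 31.5, 28.2 and 32.4 FPKM in HDAC1cKO replicates 1 to 3. The groups did not overlap, and the means were 42.5 ± 2.25 and 30.7 ± 2.21 FPKM (SD, n = 3 each). The log2 difference was -0.47 ± 0.08 (SE) with a 95% interval from -0.67 to -0.26, and the limma p was 0.00136 before and 0.149 after adjustment (exact permutation p = 0.1). Cd226 was one of 2 genes whose log2 fold change differed between the experiments, by -0.62 ± 0.16 (SE) with an adjusted p of 0.0240, where 14.6% of 13440 genes passed this test. Without HDAC1cKO replicate 1 or replicate 3 the adjusted p of this difference was 0.0538 and 0.0549, with the replicate block 0.0988 and with the Xist level as a covariate 0.0839, none of which passed.

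Cd226 was listed without a name in all 14 libraries. Its assembled locus shared 0.764 to 0.790 of the joint span with the whole gene and entered only through an annotated transcript that starts inside the gene. It ended at positions 89270201 to 89271557 in HDAC1cKO-HDAC2HET and at 89271564 to 89272704 in WT samples of that experiment, so the 2 groups were not measured over the same 3′ end. Short unnamed loci within the gene, 3 to 15 per library, were not added.

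Cd96 lies on the same chromosome and strand as Tigit (chr16:46035657-46120251). Its FPKM was 11.1, 9.82, 9.89 and 10.4 in WT replicates 1 to 4 and 5.69, 8.25, 8.04 and 6.86 in HDAC1cKO-HDAC2HET replicates 1 to 4. All mutant samples were below all WT samples. The means were 10.3 ± 0.612 and 7.21 ± 1.18 FPKM (SD, n = 4 each), and the log2 difference of -0.52 ± 0.12 (SE) passed (adjusted p = 0.00657, exact permutation p = 0.0286) at 1.44-fold, below the 2-fold threshold. With restimulation the values were 21.3, 22.1 and 31.6 FPKM in WT and 16.6, 22.7 and 23.2 FPKM in HDAC1cKO replicates 1 to 3. These groups overlapped, and the log2 difference of -0.25 ± 0.20 (SE) did not pass (adjusted p = 0.607), with a 95% interval from -0.75 to 0.24. It was -0.07 without WT replicate 3 and -0.10 without HDAC1cKO replicate 1.

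RefSeq promoter sequences were at hand for Tigit and Cd96 alone among the 6 genes, and they are shown because these genes bind the same ligand, share a chromosome and strand and moved in opposite directions in HDAC1cKO-HDAC2HET cells. Each line gives the 250 bases before the RefSeq start site on the minus strand of GRCm38.p6, at chr16:43664185-43664434 for Tigit and chr16:46120249-46120498 for Cd96, with a match to the RUNX core motif in capitals.
Tigit: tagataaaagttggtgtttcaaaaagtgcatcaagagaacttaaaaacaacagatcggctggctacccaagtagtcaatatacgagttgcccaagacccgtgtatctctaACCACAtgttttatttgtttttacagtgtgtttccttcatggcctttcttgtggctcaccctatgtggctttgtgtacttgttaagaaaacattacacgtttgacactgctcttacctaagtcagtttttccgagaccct
Cd96: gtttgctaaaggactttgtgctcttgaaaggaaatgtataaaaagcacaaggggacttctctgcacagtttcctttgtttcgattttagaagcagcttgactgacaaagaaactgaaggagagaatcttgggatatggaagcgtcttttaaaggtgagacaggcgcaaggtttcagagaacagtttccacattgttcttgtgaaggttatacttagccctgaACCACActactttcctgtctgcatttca
The letter patterns searched on both strands were RUNX core (TGTGGT), T-box core (AGGTGT) and AP-1 (TGANTCA). Each window held 1 RUNX core match as its reverse complement (ACCACA), which began 140 bases before the start site in Tigit and 28 bases before it in Cd96. Of 32851 mouse promoter windows of this length, 14.05% held this pattern. The T-box pattern (in 11.8% of windows) and the AP-1 pattern (in 6.75%) had no match in either window. A match is a run of letters and no evidence of binding. The assembled Tigit locus ended past its match in WT replicates 1 (43665136) and 3 (43664333) of the first experiment. It did so too in replicate 1 of HDAC1cKO-HDAC2HET (43664388) and of HDAC1cKO (43664434). The assembled Cd96 locus ended past its match in WT replicate 3 of the second experiment (46120368). In these libraries the match lay inside the assembled locus. Promoters of Crtam, Cadm1, Cd226 and Pvr are not shown.

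Cadm1, the ligand of CRTAM, lies on chromosome 9 as well (chr9:47530173-47857637, plus strand) and was the lowest of the 6 genes in every group by mean FPKM. It was at 1.11, 1.42, 2.30 and 1.44 FPKM in WT replicates 1 to 4 and at 1.06, 1.10, 1.51 and 0.907 FPKM in HDAC1cKO-HDAC2HET replicates 1 to 4. The groups overlapped, and the log2 difference of -0.40 ± 0.23 (SE) did not pass (adjusted p = 0.189), with a 95% interval from -0.94 to 0.14, and was -0.21 without WT replicate 3. Restimulated, it was at 4.12, 11.9 and 9.39 FPKM in WT replicates 1 to 3 and at 7.98, 15.9 and 19.7 FPKM in HDAC1cKO replicates 1 to 3. HDAC1cKO replicates 2 and 3 were above every WT sample and replicate 1 lay within the WT range. The log2 difference of 0.80 ± 0.49 (SE) did not pass (adjusted p = 0.504), with a 95% interval from -0.40 to 2.01, and was 0.36 without WT replicate 1. Its values were the least precise of the 6 genes, with Cufflinks confidence bounds of up to 30.4% of the value against at most 10.04% for the others.

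Pvr, which encodes the ligand shared by CD226, TIGIT and CD96, lies on chromosome 7 (chr7:19903578-19921160, minus strand) and stayed between 10.1 and 15.7 FPKM in all 14 libraries. It was at 12.5, 12.2, 12.2 and 11.7 FPKM in WT replicates 1 to 4 and at 12.4, 10.9, 10.1 and 11.3 FPKM in HDAC1cKO-HDAC2HET replicates 1 to 4. These groups overlapped, and the log2 difference was -0.13 ± 0.06 (SE) with an adjusted p of 0.123, or -0.18 with an adjusted p of 0.0185 without HDAC1cKO-HDAC2HET replicate 1. After restimulation Pvr was at 12.7, 11.4 and 13.3 FPKM in WT replicates 1 to 3 and at 15.3, 15.1 and 15.7 FPKM in HDAC1cKO replicates 1 to 3. All HDAC1cKO samples were above all WT samples, with a log2 difference of 0.30 ± 0.09 (SE), a limma p of 0.0137 before and 0.246 after adjustment, and an exact permutation p of 0.1. The log2 fold changes of the experiments differed by -0.43 ± 0.10 (SE) with an adjusted p of 0.0131. The annotated genes Gm16184 and Gm16251 overlap Pvr, and the files do not separate their reads.

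**Figure D2:**
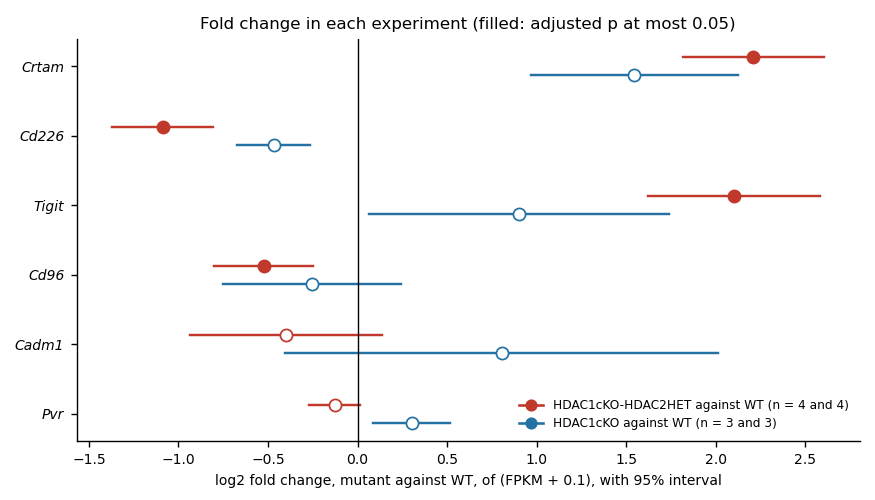
Log2 fold change of mutant against WT on the log2(FPKM + 0.1) scale (x axis) for each gene (y axis), with 95% intervals from limma, in the HDAC1cKO-HDAC2HET (red) and the HDAC1cKO (blue) experiment. Filled points passed an adjusted p of 0.05; these are Crtam at 2.21, Tigit at 2.10, Cd226 at -1.09 and Cd96 at -0.52, all in HDAC1cKO-HDAC2HET cells.

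The order of the levels changed with genotype. In WT cells of the first experiment Cd226 was highest by mean FPKM, followed by Tigit, Pvr, Cd96, Crtam and Cadm1, and of the neighbours in this order only Cd226 and Tigit had overlapping ranges. In HDAC1cKO-HDAC2HET cells the order was Tigit, Crtam, Cd226, Pvr, Cd96 and Cadm1, with no overlap between neighbours. In WT cells of the second experiment Cd226 was again highest, and the ranges of Cd96 and Tigit, of Tigit and Crtam, and of Pvr and Cadm1 overlapped. In HDAC1cKO cells Crtam was highest, followed by Tigit, Cd226, Cd96, Pvr and Cadm1, and only Pvr and Cadm1 overlapped.

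The ratio between the costimulatory receptor Cd226 and the inhibitory receptor Tigit, taken within each sample, turned over with genotype. Cd226 was 1.24, 1.80, 1.78 and 2.23 times the FPKM of Tigit in WT replicates 1 to 4, and 0.154, 0.219, 0.201 and 0.184 times in HDAC1cKO-HDAC2HET replicates 1 to 4. Cd226 thus exceeded Tigit in every WT sample and was below it in every mutant sample. Here, as in the order above and the shares below, the genes were measured over loci of unlike completeness. Those of Cd226 shared 0.764 to 0.790 of the span and differed in their 3′ ends, and that of Tigit was longer in WT replicate 1. The mean log2 ratio fell from 0.78 ± 0.35 to -2.41 ± 0.22 (SD, n = 4 each), a difference of -3.19 with an exact permutation p of 0.0286 and an adjusted p of 0.0571 over 8 ratio tests. With 4 against 4 samples, the smallest p possible was reached for all 4 ratios, and the adjusted p could not fall below this value. Because Cd226 of every mutant sample lay below, and Tigit above, every WT sample, the Cd226 to Tigit ratio had to separate the groups. Its p-value therefore adds nothing to the results of the single genes. In the second experiment Cd226 was 1.07, 2.54 and 2.72 times Tigit in WT and 0.880, 0.744 and 0.648 times in HDAC1cKO replicates 1 to 3. The groups did not overlap, and the mean log2 ratio differed by -1.37 (exact permutation p = 0.1, adjusted p = 0.16).

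As a share of the summed FPKM of Cd226, Tigit and Cd96, Cd226 made up 53.3% ± 3.98 in WT and 14.9% ± 1.71 in HDAC1cKO-HDAC2HET samples (SD, n = 4 each), and Tigit 31.2% ± 5.41 and 78.7% ± 2.65. The sum itself ranged from 57.6 to 83.8 FPKM in WT and from 108.9 to 122.8 FPKM in HDAC1cKO-HDAC2HET samples. In the second experiment Cd226 made up 47.0% ± 6.17 in WT and 33.3% ± 3.68 in HDAC1cKO samples (SD, n = 3 each), and Tigit 25.4% ± 10.9 and 44.2% ± 2.70. There the sums overlapped, at 83.2 to 98.5 FPKM in WT and 83.8 to 105.7 FPKM in HDAC1cKO samples.

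The other ratios in HDAC1cKO-HDAC2HET cells also did not overlap with WT. The log2 ratio of Cd226 to Cd96 was 1.77 ± 0.09 in WT and 1.21 ± 0.06 in mutant samples, so Cd226 fell further than Cd96. That of Tigit to Cd96, bound to separate because Tigit rose and Cd96 fell without overlap, was 0.99 ± 0.39 and 3.61 ± 0.26. That of Crtam to its ligand Cadm1 was 2.36 ± 0.53 and 4.97 ± 0.23 (SD, n = 4 each for all 3 ratios). It was bound to separate too, because even 28.7 over 1.51 FPKM in mutant samples exceeds 9.16 over 1.11 FPKM in WT. The p-values of these 2 bound ratios add nothing to the results of the single genes. The differences were -0.56, 2.63 and 2.61 for the 3 ratios in turn, with an exact permutation p of 0.0286 and an adjusted p of 0.0571 for each. In the second experiment the same differences were -0.22, 1.15 and 0.74, and the groups overlapped for all 3 ratios (exact permutation p = 0.5, 0.2 and 0.5; adjusted p = 0.5, 0.267 and 0.5). Leaving out 1 sample at a time, the Cd226 to Cd96 difference there ranged from -0.39 to -0.09 and that of Crtam to Cadm1 from 0.22, without WT replicate 2, to 1.17, without WT replicate 1.

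**Figure D3:**
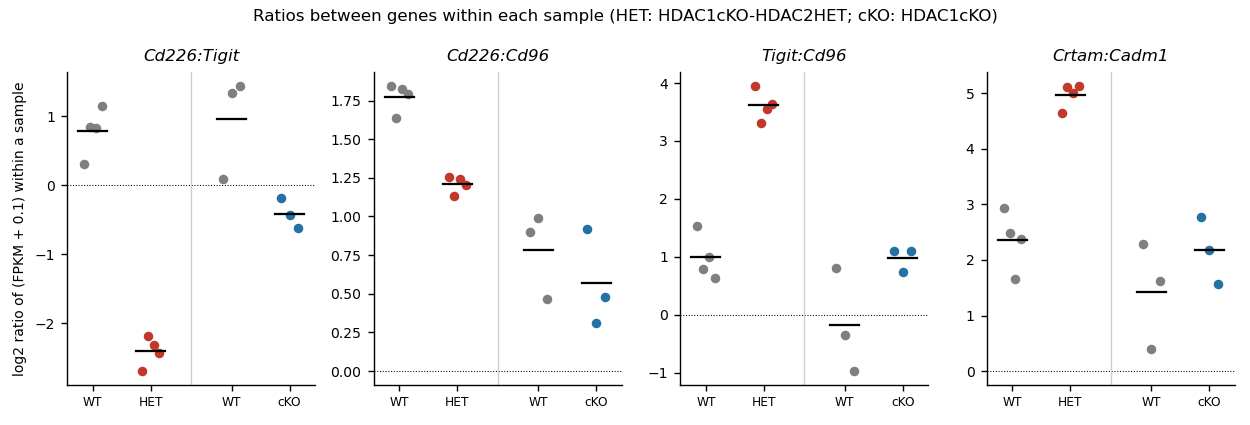
Log2 ratio of (FPKM + 0.1) between 2 genes within each sample (y axis, scaled per panel) by genotype (x axis), with group means as bars. The Cd226:Tigit ratio lies above 0 in all 7 WT samples and below 0 in all 7 mutant samples.

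Across the 14 samples, with log2(FPKM + 0.1) centred on the WT mean of its experiment, the 5 protein-coding genes nearest to Crtam among 8955 with a mean of at least 1 FPKM were Carmil1, Bok, Cacnb3, Palld and Gdf11, at root mean square distances of 0.22, 0.27, 0.29, 0.30 and 0.35. Carmil1 encodes a regulator of actin capping, Bok a BCL-2 family protein, Cacnb3 a calcium channel beta subunit, Palld an actin-associated scaffold and Gdf11 a TGF-beta family ligand. Their log2 fold changes ran from 2.13 (Carmil1) to 2.51 (Cacnb3) in the HDAC1cKO-HDAC2HET experiment and from 1.18 (Gdf11) to 1.78 (Cacnb3) in the HDAC1cKO experiment. Of the other genes of the receptor group, Tigit ranked 43rd of 8955 by this distance and Cd226 8578th. This likeness follows the same genotype contrast as the fold changes above.

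Among 28 genes of the nectin and receptor pathway beside these 6, 21 were tested in the HDAC1cKO-HDAC2HET experiment, 4 rose and 8 fell, where 24.2% of all genes tested rose and 27.6% fell. In the HDAC1cKO experiment 23 were tested and 0 passed by limma, with 2, Afdn and Itgal, at an unadjusted p under 0.05. Of the nectins, adhesion molecules related to PVR, Nectin1 fell from 0.177 ± 0.007 to 0.084 ± 0.019 FPKM (SD, n = 4 each; log2 difference -0.60, adjusted p = 0.0105), while Nectin3 was at 0.290 and 0.298 FPKM. Nectin2, which encodes a second ligand of CD226 and TIGIT, was listed at 0 in all 14 libraries. A 0 at an unnamed locus can be a failed estimate and was left out. Nectin2 kept a value in every sample only in WT of the first experiment and was not tested. Nectin4 was under the filter in the HDAC1cKO-HDAC2HET experiment. Of the other nectin-like molecules only Cadm4 was tested, and it rose from 0.082 ± 0.014 to 0.695 ± 0.049 FPKM (log2 difference 2.13, adjusted p = 8.17e-06).

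Of 6 tested polarity and scaffold partners, Afdn, which encodes the nectin-binding scaffold afadin, fell most, from 2.29 ± 0.331 to 0.324 ± 0.125 FPKM (SD, n = 4 each; log2 difference -2.53, adjusted p = 3.93e-05). Its value in HDAC1cKO cells was 0.950 to 1.14 FPKM against 1.83 to 2.63 FPKM in WT, without overlap, with a limma p of 0.00219 before and 0.173 after adjustment. Scrib, which encodes the polarity protein bound by CRTAM, was at 27.3 and 27.4 FPKM in WT and HDAC1cKO-HDAC2HET cells, with a 95% interval of the log2 difference from -0.08 to 0.09. Prkcz (log2 difference -1.05) and Dlg1 (-0.18) fell and Tln1 (0.51) rose. The median log2 fold change of this list was -0.09, beside -0.05 over all genes tested.

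Of 7 tested partners of CD226 signalling, 3 fell and 0 rose by limma, against the same 27.6% of all genes lower and 24.2% higher. Lcp2, which encodes the adaptor SLP-76, fell from 176.0 ± 6.86 to 86.6 ± 6.01 FPKM (SD, n = 4 each; log2 difference -1.02). Fyn fell by 0.45 and Lck by 0.37 on the log2 scale. Vav1 was at 42.0 and 41.8 FPKM, Itgb2 at 90.1 and 83.4 FPKM (adjusted p = 0.0706). The median of the list was -0.37. In the HDAC1cKO experiment it was 0.01, and the log2 difference of Lcp2 there was -0.10 with a 95% interval from -0.35 to 0.16. Itgal, which encodes the alpha chain of LFA-1, had no matched locus in HDAC1cKO-HDAC2HET replicate 4 and was not tested in that experiment; its other values were 129.97 to 158.7 FPKM in WT and 97.2 to 105.2 FPKM in the mutant.

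Of 5 partners of inhibitory signalling, Ptpn6, which encodes the phosphatase SHP-1, fell (log2 difference -0.34), while Grb2 and Arrb2, adaptors that bind the TIGIT tail, rose 1.13-fold and 1.16-fold. Ptpn11 was at 37.7 and 39.1 FPKM and Inpp5d, which encodes SHIP1, at 18.7 and 17.7 FPKM, and neither passed.

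**Figure D4:**
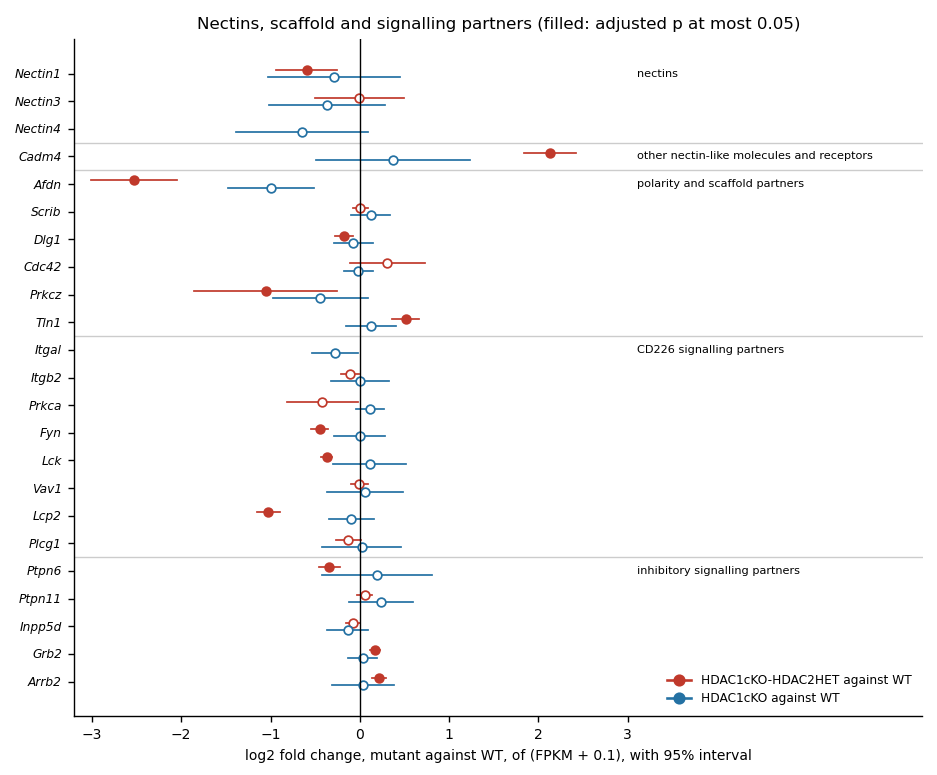
Log2 fold change of mutant against WT on the log2(FPKM + 0.1) scale (x axis) for the pathway genes tested (y axis, grouped by role), with 95% intervals from limma, in the HDAC1cKO-HDAC2HET (red) and HDAC1cKO (blue) experiments. Filled points passed an adjusted p of 0.05; Cadm4 lies farthest to the right at 2.13 and Afdn farthest to the left at -2.53.

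Because CRTAM, CD226, TIGIT and CD96 are also carried by NK cells, CD8 T cells and regulatory T cells, markers of these cells were set beside the results. Cells bearing NK1.1 or CD8α had been depleted with antibodies when CD4+ T cells were enriched. The 4 of 5 NK cell markers with a value in the first experiment summed to 0.0568 to 0.234 FPKM in WT and 0 to 0.299 FPKM in HDAC1cKO-HDAC2HET samples, and all 5 to 0.0748 to 0.354 and 0.113 to 0.275 FPKM in the second experiment, with Klra8 at 0 throughout and Tyrobp at 0 in the first experiment. Klrb1c, which encodes NK1.1, had no matched locus in the first experiment. Both CD8 T cell markers rose in HDAC1cKO-HDAC2HET cells, Cd8b1 from 3.24 to 5.87 FPKM in WT to 11.4 to 14.8 FPKM and Cd8a from 0.0390 to 0.0858 FPKM to 0.315 to 0.574 FPKM. Their sum was 3.80 to 4.86 FPKM in WT and 6.52 to 7.30 FPKM in HDAC1cKO samples. Neither passed by limma in HDAC1cKO cells, and both were higher there at an unadjusted limma p under 0.05. All 6 CD4 T cell markers fell in HDAC1cKO-HDAC2HET cells (median log2 difference -0.44), where their sum was 1558.0 to 1755.1 FPKM against 1932.4 to 2150.8 FPKM in WT, and 0 of 6 passed by limma in HDAC1cKO cells, with 1, Cd28, at an unadjusted p under 0.05.

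Of the regulatory T cell markers, 3 of 4 were tested and all 3 fell in HDAC1cKO-HDAC2HET cells (median log2 difference -0.57). In WT of that experiment, from cells sorted as CD25-, Il2ra and Ctla4 had means of 330.3 and 128.7 FPKM and Ikzf2 of 0.705 FPKM. Whether regulatory T cells were fewer was not tested. In HDAC1cKO cells 1 passed by limma and fell, Ctla4, and all 3 (Ikzf2, Il2ra and Ctla4) were lower at an unadjusted limma p under 0.05. Foxp3 was listed at 0 in 13 of 14 libraries and reached 1.48 FPKM in WT of the first experiment. It lacked a usable value in samples of every group and was not tested. A 0 at an unnamed locus can be a failed estimate and was left out. Gamma delta T cell markers summed to at most 2.39 FPKM, B cell markers to at most 1.15 FPKM, myeloid markers to at most 0.146 FPKM, dendritic cell markers to at most 3.75 FPKM and stromal or epithelial markers, Pecam1 among them, to at most 23.4 FPKM in any library. Itgam, which encodes the myeloid marker CD11b, had no matched locus in any library and is not in the myeloid sum, and the gamma delta T cell sums rest on 3 of 4 markers in at least 1 library of each group but HDAC1cKO-HDAC2HET. Among these lists, in HDAC1cKO-HDAC2HET cells, 2 gamma delta T cell markers fell, 1 dendritic cell marker (Zbtb46) rose, and 1 stromal or epithelial marker rose (Epcam) and 1 fell (Pecam1). Their part in the changes of the receptor genes was not tested.

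Xist, the RNA of the inactive X chromosome in female cells, was at 58.9 to 65.2 FPKM in WT and 26.0 to 33.7 FPKM in HDAC1cKO-HDAC2HET samples, without overlap, so that a term for it and the genotype cannot be told apart there. In the second experiment it was at 42.9, 0.0188 and 33.2 FPKM in WT replicates 1 to 3 and at 0.00819 to 0.0435 FPKM in the HDAC1cKO samples. The Cufflinks bounds of Xist were wide in all 14 libraries, at 280% to 10643% of the value, so these levels are imprecise. Against WT replicate 2 alone, all 3 HDAC1cKO samples were higher for Crtam (54.8 to 72.5 against 15.7 FPKM), Tigit (35.8 to 50.03 against 17.3 FPKM) and Pvr (15.1 to 15.7 against 11.4 FPKM) and lower for Cd226 (28.2 to 32.4 against 43.9 FPKM). For Cd96 (16.6 to 23.2 against 22.1 FPKM) and Cadm1 (7.98 to 19.7 against 11.9 FPKM) they lay on both sides of it. A single WT library allows no test. With the Xist level as a covariate the log2 differences in HDAC1cKO cells were 1.94 for Crtam, 1.27 for Tigit, -0.51 for Cd226 and 0.43 for Pvr, and none of them passed.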

How the data were processed

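RNA-Seq of 14 libraries (TruSeq Stranded mRNA, single reads) was analysed. The authors aligned reads to mm10 (TopHat) and assembled each library on its own (Cufflinks), which gave the deposited FPKM values; the notes deposited with the samples also name STAR and Subread without a role. Assembly by library lists a gene by name in one library and as an unnamed locus in another, and read counts were not used here. Unnamed loci were matched to GENCODE M21 spans at a share of at least 0.8. Loci at 0 were left out, and named genes at 0 were kept.

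The 2 experiments were fitted separately with limma 3.58.1 (R 4.3.3) on log2(FPKM + 0.1), keeping genes whose mean FPKM reached 0.1, with an intensity trend in the variance prior and Benjamini-Hochberg adjustment over all genes tested. A gene passed at an adjusted p of at most 0.05 and was called with a change of at least 2-fold too. Fold changes are on the log2(FPKM + 0.1) scale and understate changes of low genes. The difference between experiments was a contrast over 14 samples and 4 group means. Ratios and single genes were tested with 2-sided exact permutation tests. Intervals are 95%. The scripts were tested on simulated data.

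The 6 genes and the lists were chosen with earlier results of these data known. Named were the 6 genes, Hdac1, Hdac2, list genes that passed, the 5 genes nearest to Crtam, and list genes quoted for comparison after their values were seen; markers are given as lists. Alternatives changed the pseudocount, filter, scaling, variance prior, sample weights, locus share, Xist term, replicate block, each left-out sample and, added after seeing the data, the samples fitted together. After the group mean of each gene was removed, same-numbered WT and mutant samples correlated at -0.01 to 0.04. Differently numbered samples of an experiment correlated at -0.05 to 0.05. No pairing by replicate number was seen, but the sample labels did not say whether the numbers stood for pairs. Protein sequences were not used here. Figures were drawn with matplotlib 3.10.9.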

Additional observations from a re-analysis of the deposited data

Results flagged for a closer look

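The fold changes of 2 of the 6 genes differed between the experiments by the limma contrast over all 14 samples, where 14.6% of 13440 genes passed. For Cd226 the log2 fold change was -1.09 in HDAC1cKO-HDAC2HET and -0.47 in HDAC1cKO cells, a difference of -0.62 (adjusted p = 0.0240). This did not pass without HDAC1cKO replicate 1 (adjusted p = 0.0538) or replicate 3 (0.0549), with the replicate block (0.0988) or with the Xist level as a covariate (0.0839). It was lower than WT in 4 of 4 and 3 of 3 mutant samples. For Pvr the log2 fold change was -0.13 in HDAC1cKO-HDAC2HET and 0.30 in HDAC1cKO cells, a difference of -0.43 (adjusted p = 0.0131), with 3 of 4 mutant samples below every WT sample in the first experiment and 3 of 3 above every WT sample in the second. Genotype, restimulation, preparation and the listing of genes differ together between the experiments and cannot be told apart.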

How the results depend on the processing

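The FPKM values carry Cufflinks bounds of 3.96% to 10.04% of the value for Crtam, Cd226, Cd96, Tigit and Pvr and up to 30.4% for Cadm1, and the 3 against 3 design cannot give an exact p under 0.1. Those bounds were 280% to 10643% for Xist, so its level is an imprecise covariate. Over all alternatives, 639 of 726 values were kept. For fold changes this meant the same direction and side of the threshold, and for counts a value within 1.5 times. For the ratios between genes it meant the same direction alone, with no threshold. The replicate block left these ratios unchanged, so those values could only be kept. The scalings moved the median over all genes by at most 0.022 on the log2 scale. With the Xist level as a covariate, which does not overlap between genotypes in the first experiment, Crtam (2.04, adjusted p = 0.322), Cd226 (-1.38, 0.334), Cd96 (-1.12, 0.379) and Tigit (3.14, 0.210) no longer passed in HDAC1cKO-HDAC2HET cells, and Cadm1 (0.094) and Pvr (0.097) turned positive. Genes passing there numbered 11 higher and 6 lower, the same 11 and 6 being called, and 0 and 0 of the pathway lists. In HDAC1cKO cells this covariate gave 32 higher and 46 lower passing and 31 and 46 called. For the difference it gave -0.58 for Cd226 (adjusted p = 0.0839) and 611 genes passing lower.

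In HDAC1cKO-HDAC2HET cells, called genes numbered 416 higher and 326 lower with a pseudocount of 1, 530 and 502 at a mean FPKM of at least 1, and 225 and 191 with named rows only, where 477 higher and 549 lower passed, with 1 and 1 of the pathway lists. With named rows only, none of the 6 genes had a value in every sample of an experiment. In HDAC1cKO cells, against 4 genes passing higher, 9 lower, 2 called higher and 9 called lower, a pseudocount of 1 gave 1 called higher, and 0.01 gave 7 passing and 4 called higher. No filter gave 1 and 0, a mean FPKM of at least 1 gave 13 passing and 9 called higher and 14 passing lower, median-ratio scaling gave 8 and 4 higher, no variance trend 0 and 0, quality weights 16 passing and 11 called higher and 15 passing lower, and named rows only 1 and 1. The fit over all 14 samples gave 627 higher and 704 lower passing, 145 and 147 called and 1 lower of the pathway lists, and Crtam (1.55, adjusted p = 0.00242), Cd226 (-0.47, 0.0334) and Pvr (0.30, 0.0261) passed. For the difference, named rows only gave 51 higher and 25 lower, and combined standard errors 587 and 529. The causes were not tested.

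Leaving out 1 sample at a time, the Crtam difference in HDAC1cKO cells ranged from 1.34 to 1.78 and the Pvr difference in HDAC1cKO-HDAC2HET cells from -0.18 to -0.082. The difference between experiments ranged from -0.69 to -0.53 for Cd226 and from 0.81 to 1.42 for Tigit. Counts in HDAC1cKO cells ranged from 2 to 25 passing and 2 to 23 called higher, and from 9 to 33 passing and 9 to 31 called lower, with the highest numbers without WT replicate 3.

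With the replicate block, the Cadm1 difference between experiments was -1.20 (adjusted p = 0.0207) and passed, the Cd226 difference was -0.62 (0.0988) and did not, and 603 genes passed lower. In HDAC1cKO cells the block left 0 higher and 5 lower passing and 0 and 5 called. It changed no other call of the 6 genes. Whether the replicate numbers stood for pairs was not given in the sample labels.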
